A study of Mus musculus with 4 samples.

Results

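The lower part of the glycolytic pathway was followed here through the mRNAs of its enzymes, in natural killer (NK) cells that carried or lacked TNFR2. The genes were taken by symbol from the deposited count table and comprised *Aldoa*, *Gapdh*, *Pgk1*, *Pgam1*, *Eno1*, *Eno1b*, *Eno3*, *Pkm*, *Ldha* and *Ldhb*. All 10 were present among the 35798 named genes of the table, and all 10 passed the filter on low counts that left 13822 genes to be tested.

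Bulk RNA-seq had been performed on Ly49H+ NK cells recovered by sorting from the spleen, on D3.5 of infection with murine cytomegalovirus (MCMV), a herpesvirus whose infected cells are recognised through the receptor Ly49H. The wild-type group was 2 libraries of CD45.1 Ly49H+ cells, and the TNFR2 KO group was 2 libraries of CD45.2 Ly49H+ cells from mice deficient in *Tnfrsf1b*, the gene of TNFR2. Cells of both genotypes had been transferred together into NSG mice, all of which were infected, and the spleens of 3 such mice were pooled for each library, with the wild-type and TNFR2 KO libraries of the same number drawn from the same pool. The comparison asks how loss of TNFR2 in NK cells changed their transcripts during acute infection in a shared host.

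No uninfected group, age or sex of the animals was part of the labels used here. NSG mice lack T, B and NK cells of their own but keep myeloid cells, and as mice of NOD background their leukocytes carry CD45.1. Genotype differed together with the CD45 allele and the sort gate, so that their parts in any difference cannot be told apart. The study describes a single experiment in duplicate, and p-values therefore measure only the spread between these duplicates, which may be technical.

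Lower glycolysis turns the sugar phosphates made by the early steps into pyruvate and lactate, and it is the stretch of the pathway that returns ATP. Aldolase cleaves fructose 1,6-bisphosphate, GAPDH reduces NAD+, phosphoglycerate kinase and pyruvate kinase make ATP, and lactate dehydrogenase restores NAD+ by reducing pyruvate. Activated NK cells are known to raise glycolysis, and several of these enzymes exist as isozymes that differ by tissue.

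The totals ran from 32713256 to 39543650 counts per library. *Tnfrsf1b* itself (chr4:145213463-145246870, GRCm38, minus strand) stood at 264.6 and 268.5 CPM in the wild-type pair and at 55.1 and 58.6 CPM in the TNFR2 KO pair, where CPM is the count relative to the TMM-scaled library size. Its transcript was thus lower in both libraries labelled TNFR2 KO (log2-fold change -2.23, SE 0.0352, edgeR adjusted p = 1.35e-13). All log2-fold changes given here are TNFR2 KO over wild-type, and a gene was called at an adjusted p value under 0.05.

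The differences were small for most of these genes and mostly in one direction. Of the 10 genes, 8 were lower in TNFR2 KO cells, 0 were higher and 2, *Eno1* and *Ldhb*, were not called. Over all 13822 genes tested, 26.2% were lower and 24.2% were higher. Among the 2337 genes that averaged 100 CPM or more, for which small differences can be resolved, 22.0% were lower and 47.9% were higher. *Eno1b*, *Eno3* and *Ldhb* averaged less than that and are not among these genes. The median log2-fold change was -0.25 over the 10 genes and -0.003 over all genes tested. *Eno1b* alone passed an absolute log2-fold change of 1, and 11.8% of all genes tested were lower past that threshold.

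**Figure D1:**
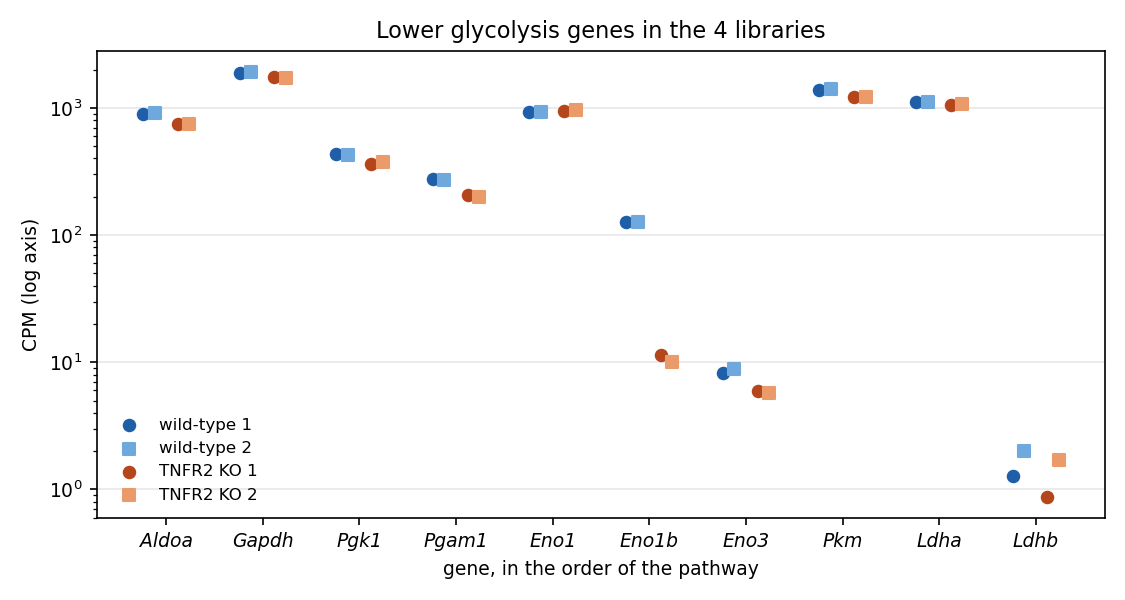
Level of each of the 10 genes in CPM (log axis) in each of the 4 libraries, with genes placed in the order of the pathway and 1 point per library. The TNFR2 KO points lie below the wild-type points for the genes called lower, by far the most for *Eno1b* (126.2 and 127.0 against 11.4 and 9.98 CPM). *Eno1* lies slightly above and *Ldhb* overlaps. The share of all genes tested that separate in this way was not counted. Non-overlap of the pairs, which *Eno1* shows without being called, is therefore only a description, here and for the genes below.

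*Aldoa* encodes the aldolase of muscle and most other tissues (chr7:126795234-126800751, minus strand, with a further annotated gene of the same symbol just beside it). It stood at 893.7 and 907.4 CPM in the wild-type pair and at 741.1 and 740.5 CPM in the TNFR2 KO pair. Both TNFR2 KO libraries lay below both wild-type libraries, and the fall of 17.7% was many times the difference between duplicates (log2-fold change -0.28, SE 0.0223, edgeR adjusted p = 4.73e-07).

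*Gapdh*, whose enzyme makes 1,3-bisphosphoglycerate, was the most abundant of the 10 genes (chr6:125161715-125166467, minus strand). Its level was 1875.6 and 1914.5 CPM in wild-type cells and 1756.8 and 1706.3 CPM in TNFR2 KO cells. The groups did not overlap, and the level was 8.62% lower in TNFR2 KO cells (log2-fold change -0.13, SE 0.0222, edgeR adjusted p = 0.000374). *Gapdh* is often used as a reference transcript, and here it took part in the difference between genotypes.

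The value of *Gapdh* rests on how reads were shared out among near-identical copies. Of the 31-base stretches in its annotated transcripts, 27.2% also occur in transcripts of other genes, most of them processed pseudogenes that repeat the mature mRNA. A copy was defined as a gene that holds at least 5% of a member's stretches, and 88 copies of *Gapdh* had a row in the table. They took 30.9% and 30.5% of the reads of the family in wild-type cells and 27.1% and 29.5% in TNFR2 KO cells. The copies below are named because of their levels, after these had been seen.

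*Gm13394* (chr2:28933610-28934609, minus strand) aligned to the transcript Gapdh-202 over 1000 bases with 1 difference, whereas *Gm10359* (chr5:105862701-105863702, minus strand) and *Gm12671* (chr4:91851668-91852669, minus strand) aligned over 1002 bases with 0 differences. The single difference was A438C, with positions counted from 1 at the 5′ end of Gapdh-202. It falls in coding sequence of exon 4, at chr6:125163016. The window of 41 bases around it is shown from the transcript sequences (GENCODE, GRCm38), 5′ to 3′ in the sense of *Gapdh*, with the differing base in capitals, because, over the aligned stretch, this base alone separates *Gm13394* from *Gapdh*. The *Gapdh* window spans chr6:125162996-125163036 on the minus strand, and *Gm10359*, *Gm12671* and *Gm7336* hold the same letters.
Gapdh: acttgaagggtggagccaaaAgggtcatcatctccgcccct
Gm13394: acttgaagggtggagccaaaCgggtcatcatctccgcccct

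The rows of these copies did not follow *Gapdh*. *Gm13394* was listed at 374.9 and 369.7 CPM in the wild-type pair and at 34.6 and 33.5 CPM in the TNFR2 KO pair, a 10.9-fold lower level (log2-fold change -3.45, edgeR adjusted p = 3.19e-15). *Gm10359* and *Gm12671*, whose sequences are the same, were each listed at 0 in both libraries of wild-type cells and at 96.6 and 85.9 CPM in the TNFR2 KO pair. Reads of this family were thus listed under different rows in the genotypes.

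*Gm7336* (chr7:51746647-51747878, plus strand), which aligned to Gapdh-202 over 1198 bases with 0 mismatches and 1 gap, was listed at 439.4 and 448.7 CPM in wild-type cells and at 401.8 and 492.7 CPM in TNFR2 KO cells. The TNFR2 KO duplicates lay on either side of the wild-type values, and the gene was not called (edgeR adjusted p = 0.925). Of the TNFR2 KO duplicates, the one with more *Gm7336* had less *Gapdh*. Of the wild-type duplicates, the one with more *Gm7336* also had more *Gapdh*. When *Gapdh* and all its copies were summed, the total was 2714.5 and 2754.0 CPM in wild-type cells against 2408.7 and 2418.9 CPM in TNFR2 KO cells. The SD of the TNFR2 KO duplicates was 35.8 CPM for *Gapdh* alone and 7.22 CPM for the sum, and that of the wild-type duplicates was 27.5 and 27.9 CPM. This sum, added after the data had been seen, was lower in TNFR2 KO cells by a log2-fold change of -0.18 (SE 0.0189, edgeR adjusted p = 5.38e-06), a slightly larger difference than that of *Gapdh* alone.

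**Figure D2:**
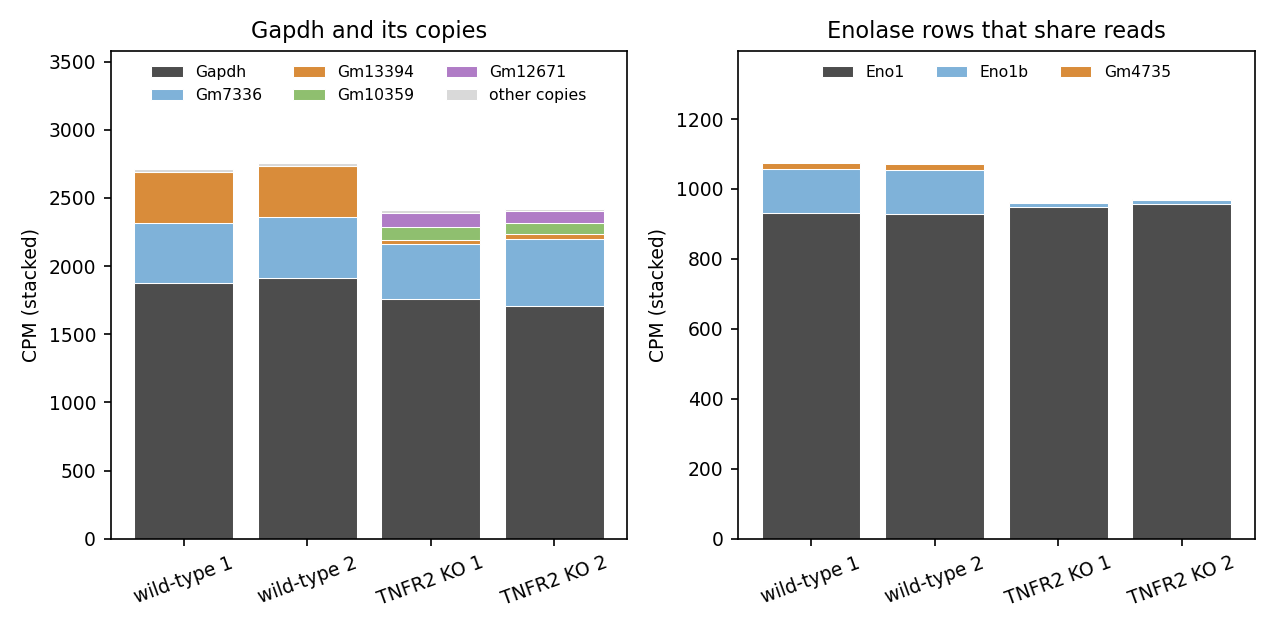
Stacked CPM per library of *Gapdh* and its copies (left) and of *Eno1*, *Eno1b* and the pseudogene *Gm4735* (right), with 1 bar per library. *Gm13394* and *Eno1b* are large in the 2 wild-type bars and nearly gone from the 2 TNFR2 KO bars, *Gm10359* and *Gm12671* appear only in the TNFR2 KO bars, and the full bars are lower in TNFR2 KO cells on both sides.

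*Pgk1* encodes the phosphoglycerate kinase of somatic cells (chrX:106187100-106203699, plus strand). It stood at 431.3 and 422.2 CPM in wild-type cells and at 363.3 and 375.1 CPM in TNFR2 KO cells, with no overlap between groups. The level was 13.5% lower in TNFR2 KO cells (log2-fold change -0.21, SE 0.0265, edgeR adjusted p = 3.24e-05).

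The retrosequence *Pgk1-rs7* (chr12:10898986-10900240, minus strand), named after its level had been seen, matched the transcript Pgk1-201 over all of its 1255 bases with 0 differences. Its row moved the same way, from 74.8 and 70.4 CPM in wild-type cells to 54.5 and 41.0 CPM in TNFR2 KO cells (log2-fold change -0.60, edgeR adjusted p = 0.000176). Summed over both and the remaining copies, the log2-fold change was -0.26 (SE 0.0249, edgeR adjusted p = 2.22e-06), with 506.1 and 492.7 CPM in wild-type cells and 417.9 and 416.1 CPM in TNFR2 KO cells.

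*Pgam1*, the phosphoglycerate mutase of brain and most other tissues (chr19:41911923-41918660, plus strand), fell the most after *Eno1b* and the weakly expressed *Eno3*. It was at 275.7 and 270.2 CPM in the wild-type pair and at 205.3 and 198.7 CPM in the TNFR2 KO pair. The wild-type and TNFR2 KO libraries lay far apart, and the fall was 26.0% (log2-fold change -0.43, SE 0.0286, edgeR adjusted p = 8.03e-08). Its processed copy *Pgam1-ps2* (chr7:27469771-27470535, minus strand; named after its values were seen), identical over 765 bases, was listed at 5.11 and 14.2 CPM in wild-type cells and at 8.06 and 5.74 CPM in TNFR2 KO cells. That row overlapped between the groups and was not called, and adding it left the log2-fold change at -0.44.

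Enolase, which makes phosphoenolpyruvate, was represented by 3 of the 10 genes, and their rows parted. *Eno1*, the enolase of most cells (chr4:150236721-150248879, plus strand, 4.99 Mb from *Tnfrsf1b*), stood at 931.2 and 927.7 CPM in wild-type cells and at 948.1 and 958.5 CPM in TNFR2 KO cells. The TNFR2 KO libraries lay just above the wild-type libraries without overlap, but the gene was not called (log2-fold change 0.04, SE 0.0217, edgeR adjusted p = 0.188), and its log2-fold change was -0.024 with library size alone as the scaling.

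*Eno1b* is a retrotransposed enolase gene on chromosome 18. It was listed at 126.2 and 127.0 CPM in the wild-type pair and at 11.4 and 9.98 CPM in the TNFR2 KO pair. Its level was thus 11.7-fold lower in TNFR2 KO cells, the largest difference among the 10 genes (log2-fold change -3.55, SE 0.0557, edgeR adjusted p = 1.27e-13).

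The transcripts of *Eno1* and *Eno1b* are hard to tell apart. They aligned over 1385 bases with 9 differences, and 89% of the 31-base stretches of *Eno1b* were found in other genes, 81.8% in *Eno1* itself. A further row, the processed pseudogene *Gm4735* (chr2:80837141-80838442, plus strand; named after its values were seen), aligned to *Eno1b* over all of its 1302 bases with 3 differences. It was listed at 15.9 and 17.4 CPM in wild-type cells and at 3.00 and 1.56 CPM in TNFR2 KO cells, and so fell together with *Eno1b* (log2-fold change -2.84, edgeR adjusted p = 1.37e-07).

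When *Eno1* and *Eno1b* were summed, the total was 1057.4 and 1054.7 CPM in wild-type cells and 959.5 and 968.5 CPM in TNFR2 KO cells. The sum was lower in TNFR2 KO cells, with a log2-fold change of -0.13 (SE 0.0214, edgeR adjusted p = 0.000257), close to that of *Gapdh*. With the pseudogenes included it was -0.15 (edgeR adjusted p = 7.24e-05). With TMM scaling, a lower level was therefore called when *Eno1* was taken with the rows that share its reads, and no difference was called for *Eno1* alone. Whether reads were assigned to the right copy was not tested, as the reads themselves were not analysed here.

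*Eno3*, the enolase of muscle (chr11:70657202-70662513, plus strand), shared 0 of its 31-base stretches with other genes. It was low, at 8.22 and 8.81 CPM in wild-type cells and at 5.89 and 5.77 CPM in TNFR2 KO cells. The groups did not overlap, and the level was 31.5% lower in TNFR2 KO cells (log2-fold change -0.55, SE 0.123, edgeR adjusted p = 0.00277). Of the enolase rows it is the one whose value does not depend on shared reads.

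*Pkm* encodes the pyruvate kinase of most tissues other than liver and red cells (chr9:59656368-59679375, plus strand), and its M1 and M2 forms were summed in the deposited values. It stood at 1388.1 and 1402.6 CPM in wild-type cells and at 1206.3 and 1211.7 CPM in TNFR2 KO cells. The duplicates were close and the groups clearly apart, with a level 13.4% lower in TNFR2 KO cells (log2-fold change -0.21, SE 0.0207, edgeR adjusted p = 4.07e-06).

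Lactate dehydrogenase is built from the subunits A and B, of which the A subunit prevails in glycolytic cells. *Ldha* (chr7:46841475-46855627, plus strand) was at 1105.7 and 1117.9 CPM in wild-type cells and at 1049.0 and 1071.9 CPM in TNFR2 KO cells. The groups did not overlap, but the difference of 4.62% was the smallest of those called (log2-fold change -0.07, SE 0.0222, edgeR adjusted p = 0.0224). The call was lost when wild-type replicate 1, wild-type replicate 2 or TNFR2 KO replicate 1 was left out, with log2-fold changes of -0.07, -0.05 and -0.04 and edgeR adjusted p values of 0.067, 0.169 and 0.211.

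*Ldhb* (chr6:142490249-142507957, minus strand) was near the limit of detection, at 1.265 and 2.006 CPM in wild-type cells and at 0.879 and 1.72 CPM in TNFR2 KO cells. The groups overlapped and no difference was detectable at this depth (log2-fold change -0.35, SE 0.358, edgeR adjusted p = 0.455).

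**Figure D3:**
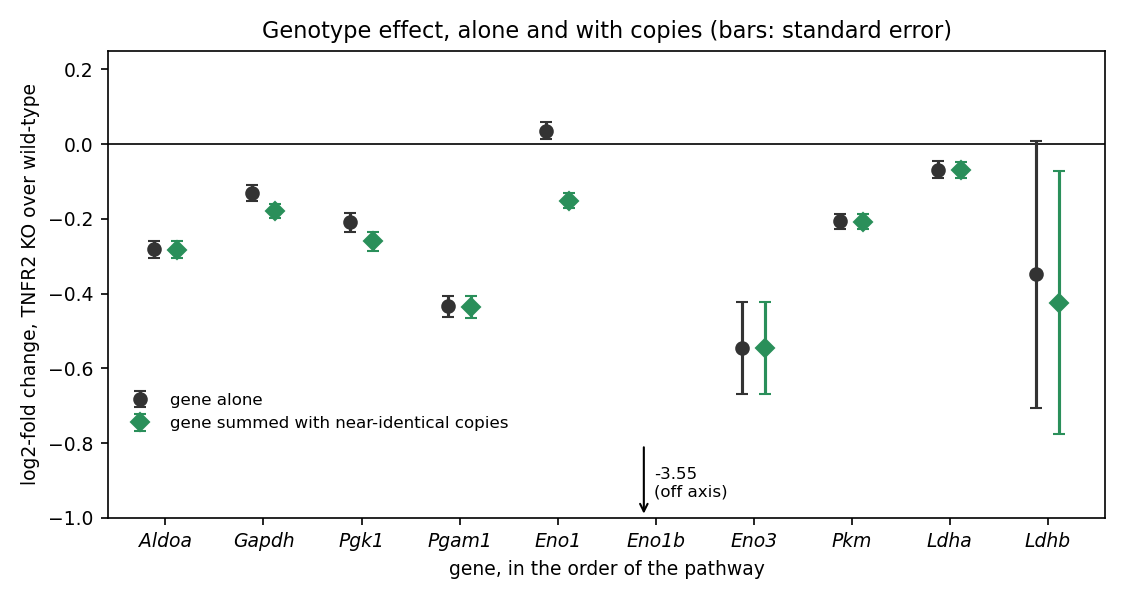
Log2-fold change of each gene, TNFR2 KO over wild-type, for the gene alone (circles) and for the gene summed with its near-identical copies (diamonds), with bars of 1 standard error from edgeR. *Eno1* moves from 0.04 to -0.15 when *Eno1b* and the pseudogenes are added to it, *Gapdh* and *Pgk1* move slightly further down, and *Eno1b*, at -3.55, lies below the axis and has no sum of its own.

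Between genes, levels were compared per length, as CPM per kilobase of the longest protein-coding transcript. *Gapdh* was the highest, at 1334.5 CPM per kilobase in wild-type and 1219.4 in TNFR2 KO cells, followed in wild-type cells by *Ldha* at 612.6, *Aldoa* at 581.4, *Pkm* at 573.7 and *Eno1* at 458.5. In TNFR2 KO cells *Ldha* stood at 584.3, *Pkm* at 497.1, *Aldoa* at 478.3 and *Eno1* at 470.3, so that *Aldoa* and *Eno1* came to lie close together. *Pgk1* was at 233.9 and 202.3 and *Pgam1* at 153.8 and 113.8 CPM per kilobase in wild-type and TNFR2 KO cells, respectively.

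The same isozyme was the most abundant at the enolase and lactate dehydrogenase steps in both genotypes. Per length, *Ldha* exceeded *Ldhb* 488-fold in wild-type and 587-fold in TNFR2 KO cells, and *Eno1* exceeded *Eno3* 84.2-fold and 126-fold. The ratio of *Eno1* to *Eno1b* rose from 6.49 to 78.6, which rests on the shared reads described above. These ratios are descriptions of means over 2 libraries and were not tested.

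Summed over the 10 genes, the transcripts made up 0.719% and 0.725% of all counts in wild-type cells and 0.615% in each TNFR2 KO library. On the scaled values the sum was 7037.1 and 7100.4 CPM in wild-type cells (7069 ± 44.7, SD, n = 2) and 6288.1 and 6280.1 CPM in TNFR2 KO cells (6284 ± 5.68, SD, n = 2), 11.1% lower. An exact two-sided permutation test gave p = 0.3333, which is the smallest value that 2 libraries against 2 can give. For sums by step, listed isozymes of the same reaction were added in, while *Tpi1*, *Bpgm* and *Ldhd* were left out. The log2-fold change was then -0.28 for aldolase, -0.13 for GAPDH, -0.21 for phosphoglycerate kinase and -0.43 for phosphoglycerate mutase. It was -0.13 for enolase, -0.21 for pyruvate kinase and -0.07 for lactate dehydrogenase. Each of these 7 sums was lower in TNFR2 KO cells, with edgeR adjusted p values from 8.19e-08 for the mutase to 0.0216 for lactate dehydrogenase. Apart from enolase, the sums largely repeat 1 member each. For lactate dehydrogenase the wild-type libraries summed to 1107.5 and 1120.2 CPM, against 1105.7 and 1117.9 CPM for *Ldha* alone. With a library left out, the log2-fold change of that sum ran from -0.08 to -0.04.

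Other isozymes of the same steps were mostly low. The list of 13 also held *Tpi1*, *Bpgm* and *Ldhd*, which were left out of the sums by step. Of the 13, 6 passed the filter, 1 was lower (*Tpi1*), 1 was higher (*Gapdhs*) and 4 were not called. The median log2-fold change was 0.12. *Tpi1*, whose enzyme interconverts the products of aldolase, stood at 325.4 and 329.8 CPM in wild-type and at 270.3 and 267.3 CPM in TNFR2 KO cells, with no overlap (log2-fold change -0.28, edgeR adjusted p = 1.51e-06). *Bpgm*, of the red cell bisphosphoglycerate shunt, was not called (0.16, edgeR adjusted p = 0.0772), and the testis form *Gapdhs* was higher by 1.21 from levels under 2 CPM.

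The earlier steps of the pathway were less uniform. Of 13 genes of glucose entry and upper glycolysis tested, 7 were lower, 2 were higher and 4 were not called, with a median log2-fold change of -0.13. The hexokinase genes *Hk3* and *Hk2* were lower, with log2-fold changes of -3.15 and -1.35, *Hk3* going from 150.1 and 150.7 CPM to 16.6 and 17.4 CPM. *Pfkp*, a phosphofructokinase, and *Slc2a3*, a glucose transporter, were higher in TNFR2 KO cells by 0.20 and 0.30. *Gpi1*, of the step between hexokinase and phosphofructokinase, was not called (499.8 and 496.9 against 499.6 and 492.7 CPM, edgeR adjusted p = 0.853).

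Beyond pyruvate, 11 of 23 tested genes of pyruvate and lactate fate were lower, 3 were higher and 9 were not called (median -0.14). The lactate exporter *Slc16a3* was at 53.4 and 55.2 CPM in wild-type and at 42.6 and 42.0 CPM in TNFR2 KO cells (log2-fold change -0.36, edgeR adjusted p = 3.48e-05). *Slc16a7*, another monocarboxylate transporter, fell by 2.92 from levels under 4 CPM, and the mitochondrial malate dehydrogenase *Mdh2* fell by 0.14. The cytosolic *Mdh1* and the pyruvate dehydrogenase phosphatase *Pdp1* were higher by 0.11 and 0.24, and *Bsg*, the chaperone of the lactate transporters, was not called (-0.03, edgeR adjusted p = 0.357).

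Of 19 tested regulators of glycolytic genes, 4 were lower, 5 were higher and 10 were not called (median 0.05), shares near the 26.2% and 24.2% of all genes tested. *Hif1a*, a transcription factor that drives many genes of lower glycolysis, was at 392.0 and 393.6 CPM in wild-type and at 292.0 and 276.7 CPM in TNFR2 KO cells (log2-fold change -0.47, edgeR adjusted p = 5.06e-08), and the related *Epas1* fell by 0.48. *Txnip*, an inhibitor of glucose uptake, was higher in TNFR2 KO cells, at 275.5 and 277.1 CPM against 208.4 and 206.3 CPM (0.41, edgeR adjusted p = 5.80e-08). *Mlxip*, of the glucose-sensing factor MondoA, was higher by 0.25.

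**Figure D4:**
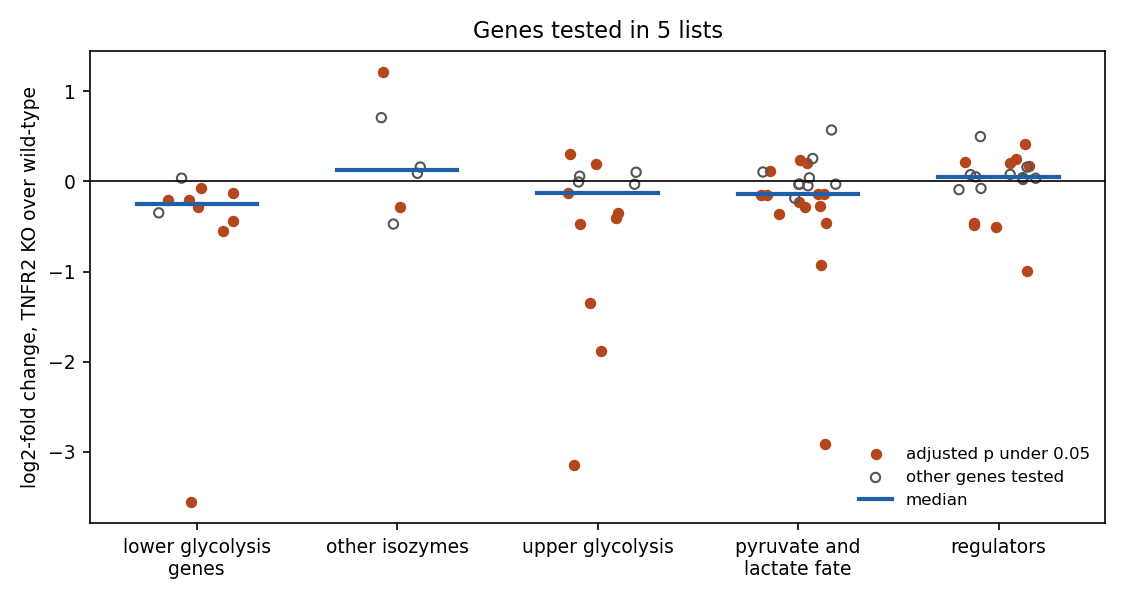
Log2-fold change, TNFR2 KO over wild-type, of each tested gene of the 10 lower glycolysis genes and of 4 lists of related genes, with 1 point per gene, filled where the adjusted p value is under 0.05, and a line at the median. The lower glycolysis genes have the lowest median (-0.25) and hold 0 filled points above zero, whereas the other lists have filled points on both sides.

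Promoter sequence was described for these genes, and any part of *Hif1a* in their levels was not tested. RefSeq windows of 250 bases before to 50 bases after a start site (GRCm38.p6) were at hand for 9 of the 10 genes, in 15 windows. The motif ACGTG, a form of the core of the hypoxia response element, was searched on both strands, and it overlaps the E-box CACGTG. Other forms of that core were not searched. It was found in 7 of the 15 windows (46.7%), belonging to 6 genes, and in 19.6% of 32851 windows of the same length over all genes. Windows of the same gene can overlap, as the *Aldoa* windows with the motif do, so the windows are not independent. Windows of *Eno1*, *Eno3* and *Ldhb* did not hold these letters.

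The 250 bases before the start are shown for *Pgam1* (chr19:41911621-41911870, plus strand), which changed the most after *Eno1b* and *Eno3*, and for the start of *Ldha* with the most matches (chr7:46845554-46845803, plus strand), which changed the least of those called. Capitals mark ACGTG on either strand. *Pgam1* holds it 1 time and *Ldha* 5 times, where each CACGTG counts on both strands, and the other *Ldha* window holds 0. A match is a description of the letters and not of a bound site.
Pgam1: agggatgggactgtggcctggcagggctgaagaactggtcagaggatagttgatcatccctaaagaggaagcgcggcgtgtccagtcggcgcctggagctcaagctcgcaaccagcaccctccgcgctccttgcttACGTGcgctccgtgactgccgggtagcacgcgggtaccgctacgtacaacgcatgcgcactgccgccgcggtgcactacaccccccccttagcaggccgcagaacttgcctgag
Ldha: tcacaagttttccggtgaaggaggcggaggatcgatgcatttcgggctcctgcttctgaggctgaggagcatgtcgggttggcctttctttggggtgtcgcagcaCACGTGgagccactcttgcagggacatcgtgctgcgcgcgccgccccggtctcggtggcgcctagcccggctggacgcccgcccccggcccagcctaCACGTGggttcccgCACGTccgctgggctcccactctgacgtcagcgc

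Most listed marker transcripts of other cell types differed between the libraries in the same direction as the lower glycolysis genes. In bulk RNA, a different number of cells of a type and a different amount of RNA per cell cannot be told apart. The wild-type cells were sorted by CD45.1, which NSG leukocytes also carry. The part of host cells in either group was not tested. Of 29 tested markers of macrophages or monocytes, 25 were lower in TNFR2 KO cells and 4 were higher, and the summed level of the list was 3445.4 and 3425.1 CPM in wild-type cells against 2120.0 and 2093.8 CPM in TNFR2 KO cells. Its most abundant genes were *Lyz2* (771.2 and 777.4 against 114.0 and 110.3 CPM) and *Itgam* and *Ccr2*, which NK cells also express and which were higher in TNFR2 KO cells, while the Kupffer cell marker *Clec4f* was at 0 in every library.

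All 18 tested neutrophil or granulocyte precursor markers were lower, with sums of 1075.0 and 1092.0 against 112.7 and 107.7 CPM, led by *Mpo*, *S100a9* and *Ngp*. Of 13 mast cell or basophil markers 11 were lower and 1 higher, with sums of 1298.1 and 1295.1 against 109.8 and 111.7 CPM, led by *Prss34*, *Mcpt8* and *Cpa3*. Of 12 dendritic cell or class II markers 7 were lower and 1, *Itgax*, was higher (sums of 2186.7 and 2214.0 against 1038.3 and 1062.6 CPM). Within that sum *Itgax* stood at 418.8 and 408.7 against 882.1 and 907.9 CPM, while *Cd74* and *H2-Ab1*, the other most abundant genes, were lower. Erythroid markers were lower in 13 of 15 cases and higher in 1, *Car2* (sums of 569.9 and 562.9 against 482.2 and 475.1 CPM). *Car2* stood at 170.6 and 170.8 against 342.1 and 331 CPM, while *Tfrc* and *Hba-a1*, the other most abundant genes, were lower. T or B cell markers were lower in 7 of 12 and higher in 3 (sums of 1406.6 and 1394.4 against 1314.8 and 1346.8 CPM). Of their most abundant genes *Trbc2* was not called, *Cd4* was lower and *Trbc1* was higher.

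Genes of the NK lineage went the other way. Of 40 tested, 37 were higher in TNFR2 KO cells and 1 was lower (median log2-fold change 0.81), with sums of 21930.6 and 21837.2 CPM in wild-type and 39790.6 and 39303.3 CPM in TNFR2 KO cells, led by *Gzma*, *Gzmb* and *Il2rb*. The part that these other transcripts had in the values of the lower glycolysis genes was not tested. When the NK lineage genes alone set the scaling, the median of all genes moved to -0.86 and all 10 genes were called lower, *Eno1* at -0.82 included. Their log2-fold changes then ran from -0.82 for *Eno1* to -4.41 for *Eno1b*, and the sum of the 10 genes changed by -1.02. Under that scaling 12187 of the 13822 genes tested were called lower and 123 were called higher. Of all calls 99% were then lower, against 52% with TMM and 64.4% with library size alone.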

How the data were processed

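Ly49H+ NK cells were measured by poly-A selected, stranded, paired-end RNA-seq in 4 libraries. Per the labels and the methods of the study, the authors trimmed reads with Trimmomatic (version 1.4 in the submitters' processing notes), assigned them to mm10 transcripts with Kallisto 0.46.1 and summed them per gene with Tximport. The authors deposited these as estimated counts (expected counts) per gene symbol, unscaled, and the sources used here do not name their transcript annotation. Kallisto splits reads that match several transcripts, so values of near-identical genes are uncertain.

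Rounded counts were scaled with TMM, and genotype was tested as a single term by the quasi-likelihood method of edgeR 4.0.16 (R 4.3.3) over the 13822 genes that passed filterByExpr (minimum count 10), with Benjamini-Hochberg adjustment. A row without a gene name, 0.0559% to 0.0728% of counts, was left out. Duplicates differed by more than sampling noise (mean chi-square per gene 3.27 and 3.47). By the labels, libraries that share a number share a pool of spleens, so the numbers pair the samples, and the correlation of their deviations across genes was 0.0243. Steps were tested on simulated data.

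Shared stretches of 31 bases, alignments (Biopython 1.88), positions and lengths came from GENCODE on GRCm38, which stands in for the annotation of the authors. Promoters came from RefSeq. Genes and lists were chosen with earlier results of these data known. Named genes were the 10 members, *Tnfrsf1b*, in each related list the 2 most abundant tested genes and up to 2 called genes per direction (lowest adjusted p), and the 3 most abundant genes of each marker list. Sums with copies were added after seeing the data. Alternatives were scaling by upper quartile, DESeq2 size factors, NK lineage genes or library size alone, DESeq2 1.42.0, a filter at a mean of 10 CPM or none, the replicate block and each library left out.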

Additional observations from a re-analysis of the deposited data

How the results depend on the processing

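The count of 8 lower genes was 10 with scaling on the NK lineage genes and 8 of 9 sums when copies were added. Genes called in the 4 related lists numbered 34 of 61, 57 with NK lineage scaling and 26 of 69 with DESeq2, fitted without the count filter. With NK lineage scaling 12187 of all 13822 genes tested were called lower and 123 higher. *Tnfrsf1b* ran from -2.27 to -2.18, *Eno1* with *Eno1b* from -0.13 to -0.11 and the sum of the 10 genes from -0.18 to -0.16 on the log2 scale with a library left out. *Eno1* turned from 0.04 to -0.024 with library size alone, -0.82 with NK lineage scaling and -0.15 with its copies. *Ldhb* ran from -0.888 to 0.081 with a library left out, turning to 0.031 without wild-type replicate 2 and to 0.081 without TNFR2 KO replicate 1, and summed with its copy it ran from -0.979 (adjusted p = 0.0299, without TNFR2 KO replicate 2) to 0.0151 (without TNFR2 KO replicate 1). The cause was not tested. *Ldha* was at -0.13 with library size alone.

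The replicate block, which uses the pairing of the pools, left the count at 8 lower genes, gave 0.0364 for *Eno1* and -0.0683 for *Ldha* (edgeR adjusted p = 0.0167), and changed no call among the 10 genes. DESeq2 called 2637 genes lower and 2337 higher, against 3624 and 3341 with edgeR, and changed no call among the 10 genes. The level of *Ldhb*, under 3 CPM, rests on the fewest counts of the 10 genes, and 2 libraries per group limit what can be said of it.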
